A study of Mus musculus with 12 samples.

Results

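Rab GTPases are the small G proteins that sort membrane traffic, and the genes described here are those of the Rab proteins together with genes named for the proteins that switch Rabs on and off or bind their active form. Members were the protein-coding genes on chromosomes 1 to 19 of the mouse build mm10 whose symbol begins with Rab and a digit, Rabgap, Rabgef, Rab11fip, Rabep or Tbc1d. The rule found 99 genes of 20665, of which 55 encode Rab GTPases and 44 encode regulators or effectors. A further 6 genes with such symbols lie outside chromosomes 1 to 19 and are not members. The measurement was a set of peaks of 5-methylcytosine (m5C), a modified base of RNA, obtained by sequencing RNA fragments that an m5C antibody had captured from hippocampus.

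All libraries came from the hippocampus of wild-type female C57BL/6 mice, and age is the one factor in which the labels of the groups differ. The young group was 3 months old and the aged group 18 months old, with 3 immunoprecipitated samples in each, and each sample has 1 deposited peak list. An unprecipitated input library accompanied every one of them. Separate animals are not stated in the labels for the samples within an age, so the tests below measure the spread between samples, which may be technical.

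List lengths were 9887, 8549 and 10392 peaks at 3 months and 15189, 14008 and 14294 at 18 months. Peaks lay in 4814 to 5352 genes of a young list and in 6235 to 6675 genes of an aged list. Every peak carries a score that is the authors' own. The lowest score was 50 or 50.01 in each list, and the highest was 3100, a value that many peaks share. No read counts came with the lists, so the depth is unknown, and a gene without a peak is not shown to lack m5C. A peak needs the transcript as well as the mark, and in bulk tissue fewer cells of a type and less RNA per cell cannot be told apart. All 8 general neuron markers, such as Snap25 and Syt1, had a peak in every list. Hippocampal excitatory neuron markers had a peak for 4, 5 and 6 of 6 in the young lists and 6, 5 and 6 in the aged. In a set of 6 inhibitory neuron markers, none had a peak in a young list and 3, 3 and 2 had one in the aged lists. The astrocyte markers had a peak for 5, 3 and 5 of 6 in the young lists and 6, 6 and 5 in the aged, and the microglial markers for 1 of 6 in 5 lists and 2 in the third aged list. Oligodendrocyte markers stood at 4, 2 and 3 of 6 in the young and 3, 3 and 4 in the aged lists, endothelial markers at 2 or 3 of 6 throughout, and choroid plexus markers at 1 of 5 in young list 3 and 0 elsewhere.

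A Rab protein alternates between a GTP-bound form on a membrane and a GDP-bound form in the cytosol. Exchange factors load GTP, effectors bind the loaded form and carry out tethering, transport or fusion, and GTPase-activating proteins (GAPs), most of which share the TBC domain, end the signal. In neurons, Rab3 and Rab27 proteins act in the release of synaptic and dense-core vesicles, Rab5 and Rab11 proteins in endocytosis and in recycling of receptors, and Rab6 proteins in traffic through the Golgi. Cytosine methylation of RNA is laid down by enzymes of the NSUN family and by DNMT2, and an antibody peak marks a stretch of transcript without resolving the base.

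In 5 members the start of the transcript lay in a region found in all 6 lists or in all lists of 1 age only. The start and its flanks are shown for these because they place a peak at a known point of the transcript, and because 1 of them, Rab6b, had its peak in every aged list and in no young list. Sequences are from RefSeq on the assembly GRCm38.p6, read 5′ to 3′ along the gene's strand, with 50 bases before the start in lower case and the first 30 bases of the transcript, all inside the peak region, in capitals.
Rab8b, chr9:66919676-66919755, minus strand: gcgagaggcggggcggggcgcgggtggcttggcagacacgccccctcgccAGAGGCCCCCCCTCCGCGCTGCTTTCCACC
Rab6b, chr9:103112024-103112103, plus strand: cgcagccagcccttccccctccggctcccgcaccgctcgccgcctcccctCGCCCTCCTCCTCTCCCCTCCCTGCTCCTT
Tbc1d5, chr17:51179323-51179402, minus strand: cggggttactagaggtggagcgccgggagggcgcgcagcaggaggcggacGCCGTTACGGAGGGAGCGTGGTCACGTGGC
Rab5a, chr17:53479184-53479263, plus strand: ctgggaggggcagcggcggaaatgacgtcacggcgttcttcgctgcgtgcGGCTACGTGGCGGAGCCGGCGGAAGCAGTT
Rab11fip2, chr19:59943335-59943414, minus strand: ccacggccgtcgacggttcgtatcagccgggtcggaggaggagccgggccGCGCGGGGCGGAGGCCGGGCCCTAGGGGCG

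The 5 starts are rich in G and C, and they differ in how much of that is cytosine on the transcript's strand. Over the first 50 bases of the transcript, which the peak region covers in all 5 and of which the first 30 are shown, G and C together made up 70% in Rab8b, 68% in Rab6b, 74% in Tbc1d5, 72% in Rab5a and 78% in Rab11fip2, against a median of 60% over 20085 RefSeq starts of the same length. The Rab8b region joins peaks whose ends differ between lists, so it is not shown that each list's peak covers that start. Cytosine alone made up 62% in Rab6b, 46% in Rab8b, 36% in Tbc1d5, 28% in Rab5a and 26% in Rab11fip2. The Rab6b transcript opens with a run of C and T broken by few purines. CNGGG, a pattern known for the m5C enzyme NSUN2, occurred on the transcript's strand in 1 of the 5, Rab11fip2, and in 35.1% of all starts. On either strand it also occurred in Rab6b, against 51.9% of all starts. CTCCA, a pattern known for NSUN6 and written here as DNA, occurred on the transcript's strand in none of the 5 and in 7.25% of all starts. On either strand it occurred in Rab5a, against 17.9% of all starts. These matches describe the letters of the window and are not sites. CNGGG and CTCCA were searched in these 50 bases, and they can share letters, since the end of CTCCA can open CNGGG.

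Of the 99 members, 72 (72.7%) had a peak in at least 1 list, where the same was true of 43.6% of all genes on these chromosomes. The members are longer genes. Their median span was 33694 bases against 17491 for all genes, and it was 40725 bases for members with a peak and 22123 for those without. The part of gene length in that share was not tested. A peak was present in all 6 lists for 19 members, which is 26.4% of the 72 and lies near the 31.6% of all genes with a peak. Scores of members with a peak in all lists and of the rest differed in their medians and overlapped in range. The median of the best score per gene was 734, 344.8 and 605.8 in the young lists and 1224, 741.9 and 777.4 in the aged lists for the 19 genes. For the other 53 it was 62.36 to 79.57 in the young and 78.74 to 85.82 in the aged lists, close to the lowest score a list holds. The highest score among those 53 was 506.9, 112.9 and 281.2 in the young lists and 642.5, 914.4 and 289.8 in the aged, while Tbc1d15, which was in all lists, scored 74.4 to 104. Scores rank peaks within 1 list, and since the lists differ in length a higher score in an aged list shows no change.

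**Figure D1:**
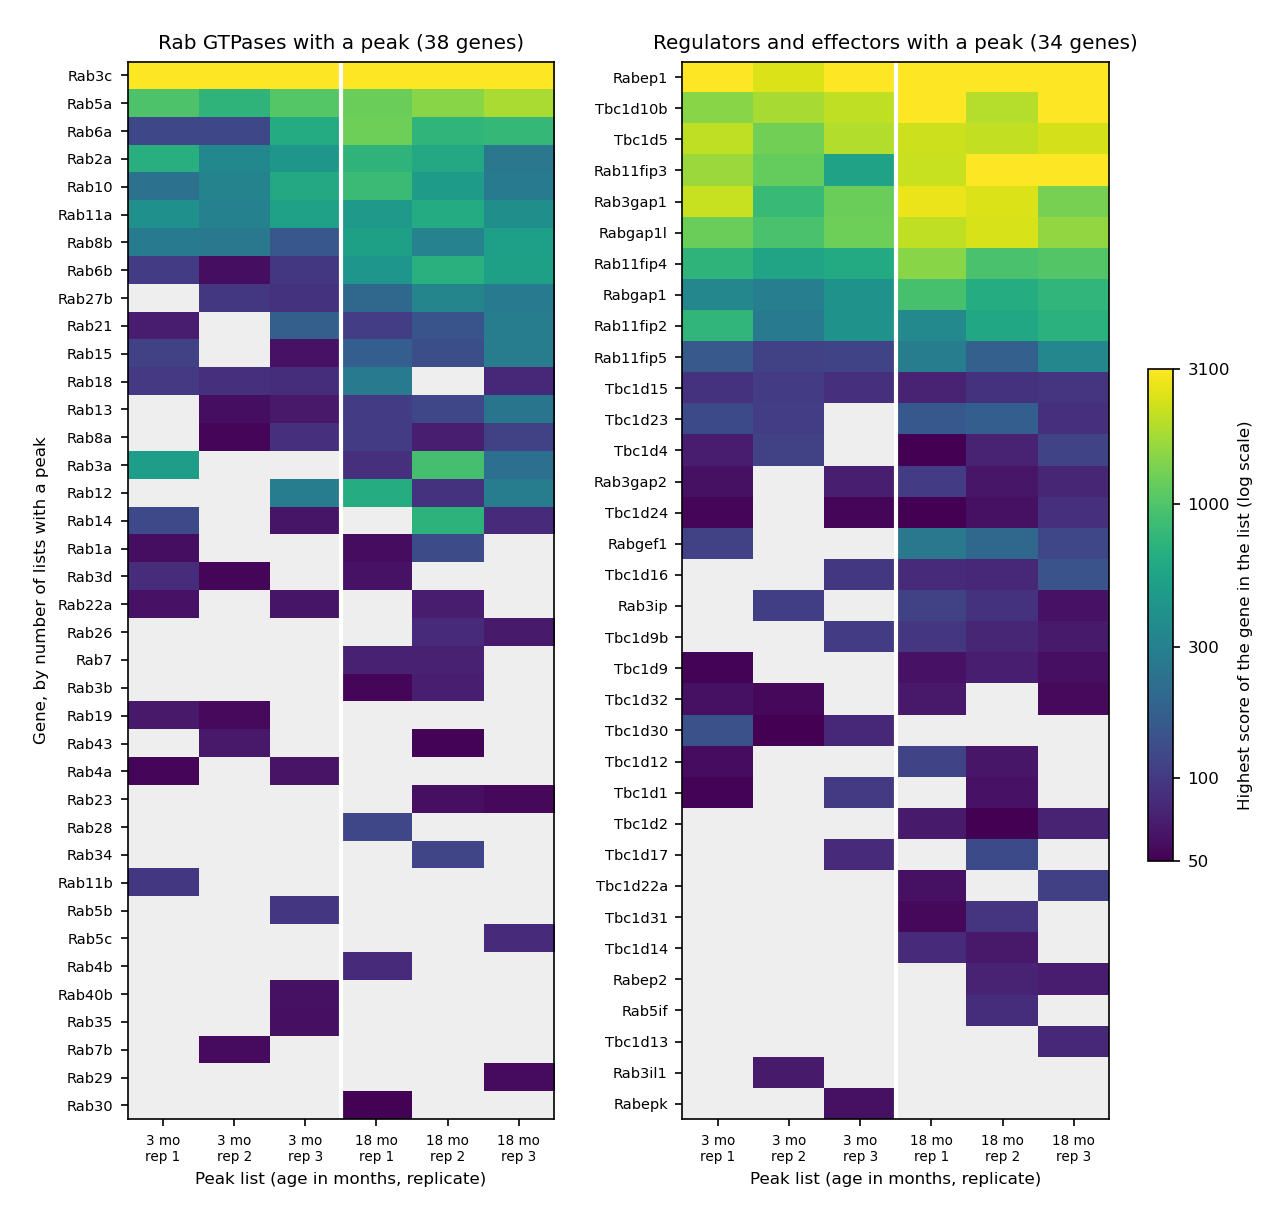
Highest peak score of each of the 72 Rab, regulator and effector genes with a peak (rows) in each of the 6 lists (columns, 3 months left and 18 months right of the white line), on a log colour scale from 50 to 3100, with grey for no peak. Genes with a peak in all 6 lists fill the top rows and hold most of the high scores, and Rab3c is at 3100 in each list.

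The secretory Rabs were led by Rab3c, a Rab3 protein of synaptic vesicles. Its highest score was 3100, the ceiling of the scale, in all 6 lists. That score belongs to a region of 7803 bases at the far end of the gene, chr13:110054200-110062002 on the minus strand, whose last base lies 13 bases from the end of the gene span. Outside that region the lists differed. Rab3c had 2, 1 and 1 peaks in the young lists and 4, 4 and 5 in the aged lists, with no overlap between the ages. The added aged peaks included 2 regions present in every aged and no young list. The region chr13:110084130-110084254 scored 167, 237 and 90.6, and chr13:110260479-110260706 scored 68.1, 71.04 and 124.

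Its relatives had lower and less regular peaks. Rab3a, an abundant Rab3 of brain synapses, scored 507 in young list 1, had no peak in young lists 2 and 3, and scored 89.1, 914 and 225 in the aged lists. The 2 high scores, 507 and 914, belong to 1 region, chr8:70755558-70756083, which no other list holds. Rab27b, which acts in dense-core and multivesicular release, had no peak in young list 1, scored 96.9 and 91.9 in the other young lists, and scored 202, 326 and 272 in the aged lists. Rab27b was therefore present in 5 of 6 lists, and the missing list was a young one.

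Rab3b scored 52.5 and 71.06 in aged lists 1 and 2 and had no peak elsewhere. Rab3d scored 84.5 and 53.7 in young lists 1 and 2 and 61.4 in aged list 1. Rab26, which links synaptic vesicles to autophagy, scored 82.7 and 66.99 in aged lists 2 and 3. The scores of these 3 genes stood at or below the percentile 30.75 of their lists, and Rab27a had no peak at all. Among the 9 secretory Rabs, 7 had a peak in some list, 4, 3 and 3 of them in the young lists and 6, 6 and 5 in the aged. The 2 ages did not overlap (3.33 ± 0.577 against 5.67 ± 0.577, SD, n = 3; p = 0.1 in a two-sided exact permutation test, the smallest p this design allows). Genes with a peak over all genes did not overlap either, at 4814 to 5352 in the young and 6235 to 6675 in the aged lists. At equal list length, defined below, the secretory Rabs with a peak numbered 4, 3 and 2 in the young and 3, 4 and 4 in the aged lists. These overlapped, with means of 3 and 3.67.

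Rab5a, the Rab of early endosomes, had 1 peak in every list and nothing else. That peak begins at the first base of the gene and covers chr17:53479234-53479608, with the same ends in all 6 lists. It scored 985, 736 and 1052 in the young lists and 1224, 1493 and 1837 in the aged, which puts it at or above 87.9% to 92.8% of the peaks of each list. The other 2 Rab5 genes had a single peak each. Rab5b scored 96.3 in young list 3, and Rab5c scored 82.8 in aged list 3.

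Rab11a, the Rab of recycling endosomes, scored 395, 309 and 534 in the young lists and 470.03, 629 and 393 in the aged. Its strongest region, chr9:64737584-64737758, covers the start of the gene and was present in all 3 young lists and in aged lists 1 and 2. The peak of the third aged list lay in another region of the gene. Rab11b had a peak only in young list 1, at 97.1.

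Rab14 scored 125 and 63.6 in young lists 1 and 3 and 716 and 83.2 in aged lists 2 and 3. Rab4a scored 53.6 and 62.05 in young lists 1 and 3, Rab4b scored 81.6 in aged list 1, and Rab35 scored 59.3 in young list 3. The 14 Rabs of early and recycling endosomes had 7, 2 and 8 genes with a peak in the young lists and 4, 5 and 5 in the aged (5.67 ± 3.21 against 4.67 ± 0.577, SD, n = 3; p = 0.8, two-sided exact permutation test). In this role 3 genes had a peak in more aged than young lists and 5 in more young than aged lists. Young list 2, the shortest list, held 2 of these genes, Rab5a and Rab11a, where the other young lists held 7 and 8.

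All 4 Rabs of transport to the plasma membrane had peaks. Rab10, known for exocytic transport and axon growth, scored 238, 317 and 606 in the young lists and 837, 480.2 and 268 in the aged. A region of 61 bases in it, chr12:3264689-3264749, was present in the aged lists only, at 187, 122 and 66.3. Rab8b scored 268, 262 and 153 in the young lists and 525, 313 and 515 in the aged, from the region over its start shown above. Its close relative Rab8a had no peak in young list 1, scored 53.8 and 88.2 in young lists 2 and 3, and scored 104, 71.04 and 113 in the aged lists.

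The Rabs of the endoplasmic reticulum and Golgi showed no difference in number between the ages, with 6, 6 and 4 of 13 genes in the young lists and again 6, 6 and 4 in the aged (p = 1, two-sided exact permutation test, n = 3 lists each). Within them, the Rab6 pair differed between the lists. Rab6b, the neuronal Rab6, scored 103, 58.2 and 97.9 in the young lists and 436, 691 and 520.2 in the aged lists. Its ages did not overlap, but neither did those of many other members with a peak in all lists, named below, with the aged scores higher in each. The share of all genes with such a separation was not computed. The aged scores of Rab6b all belong to the region over the start of the gene, chr9:103112074-103112226. That region has the same ends in the 3 aged lists and begins at the RefSeq start shown above, 407 bases into the gene span. It ranked at or above 76.6%, 84.1% and 79.9% of the peaks of its lists. No young list has a peak there, and the young peaks of Rab6b lie in other regions of the gene.

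Rab6a scored 123, 122 and 638 in the young lists and 1251, 742 and 777 in the aged. It has 2 regions in all 6 lists. At the region chr7:100636695-100636761, which is 67 bases long, the scores were 58.3, 54.1 and 121 in the young lists and 1251, 742 and 777 in the aged, or the percentiles 9.82, 6.26 and 49.8 against 89.6, 84.9 and 85.1 of their lists. At the other, chr7:100631742-100631853, the scores were 123, 122 and 638 against 636, 175 and 362, and the ages overlapped. Rab6a and Rab6b have similar coding sequences, and the treatment of reads that fit both was not given in the sources used here.

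Rab2a, which acts between the endoplasmic reticulum and the Golgi, scored 662, 345 and 445 in the young lists and 731, 600 and 255 in the aged. It has 2 regions in all lists and 1 in the aged lists only, chr4:8535644-8535908, which begins 175 bases into the gene and scored 55.7, 148 and 122. Rab18, a Rab of lipid droplets and the endoplasmic reticulum, scored 99.2, 87.9 and 86.2 in the young lists and 274 and 80.5 in aged lists 1 and 3, with no peak in aged list 2. Rab1a scored 57.9 in young list 1 and 56.96 and 128 in aged lists 1 and 2, and Rab1b had no peak.

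Rabs of late endosomes and other organelles had few peaks. Of 10 genes, 4 had one, with 0, 1 and 1 in the young lists and 2, 2 and 2 in the aged (0.667 ± 0.577 against 2 ± 0, SD, n = 3; p = 0.1, two-sided exact permutation test). At equal list length both means were 0.667. Rab7, the Rab of late endosomes and lysosomes, scored 72.7 and 72.8 in aged lists 1 and 2 and had no peak in the other 4 lists. The remaining 5 Rabs, among them the cilium-related Rab23 and Rab28, had 0, 0 and 1 genes with a peak in the young lists and 1 in each aged list.

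**Figure D2:**
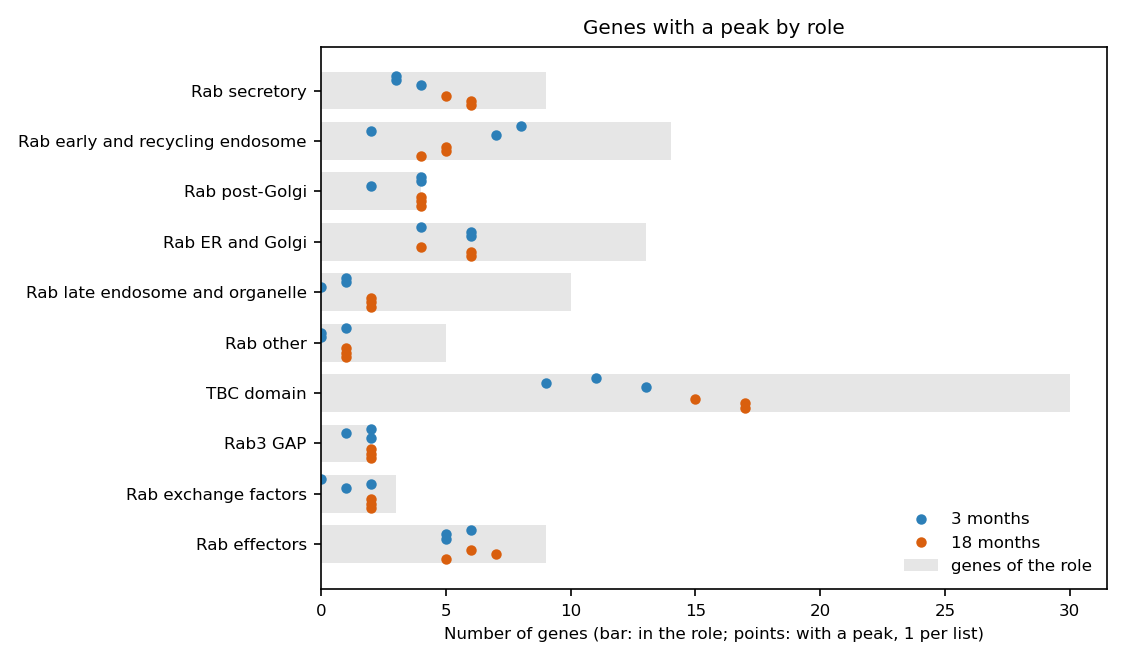
Number of genes with a peak by role: grey bars give the number of genes in the role, and each point is 1 list (blue for 3 months, orange for 18 months). Lists are as deposited. The 18-month points of the secretory Rabs, 5 to 6 genes, and of the TBC genes, 15 to 17 genes, lie to the right of all 3-month points. Those of the late endosome and organelle Rabs, at 2 genes, do so too. Those of the endoplasmic reticulum and Golgi Rabs coincide with the 3-month points. At equal list length the direction of the TBC genes turned.

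Among the GAPs, the TBC proteins Rabgap1l and Rabgap1 had several peaks in every list. Rabgap1l had 10 regions, of which 6 were present in all 6 lists. Its best region, chr1:160238531-160238635, scored 1222, 955 and 1240.05 in the young lists and 2092, 2403 and 1583 in the aged. All 6 lie at least 451312 bases from the start of a span of 574303 bases, so that 5 of the 6 stand within 37398 bases of its end. Rabgap1 scored 336, 291 and 411 in the young lists and 929, 639 and 754 in the aged. It had 2 regions in all lists and 1 in the aged lists only, chr2:37561892-37561963, which scored 139, 123 and 147.

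Tbc1d10b, a GAP for Rab35 and Rab27, and Tbc1d5, a GAP for Rab7 tied to retromer, carried high scores throughout. Tbc1d10b scored 1479, 1803 and 2077 in the young lists and 3100, 1966 and 3100 in the aged, from a region of 1710 bases that ends 44 bases before the end of the gene. Tbc1d5 scored 2089, 1283 and 1911 in the young lists and 2259, 2123 and 2361 in the aged. Its 448076-base span held 1 peak in each list and no other. That peak, chr17:51179100-51179352, covers the start site shown above and lies 1847 bases downstream of the first base of the span.

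Tbc1d15, a GAP for Rab7 linked to mitochondria, scored 90.9, 104 and 87.03 in the young lists and 74.4, 91.4 and 94.8 in the aged. It was in all 6 lists although none of its 4 regions was. Tbc1d4, a GAP of insulin-regulated transport, scored 70.1 and 113 in young lists 1 and 2 and 50.6, 73.9 and 116 in the aged lists. Its relative Tbc1d1 scored 51.9 and 102 in young lists 1 and 3 and 60.9 in aged list 2. Tbc1d24, a synaptic protein whose gene is known for epilepsy, scored 54.2 and 52.6 in young lists 1 and 3 and 50.4, 59.8 and 88.6 in the aged lists.

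The only members present in every list of 1 age and in none of the other were 2 TBC genes. Tbc1d2, a GAP for Rab7, had a peak in the 3 aged lists alone, at 67.6, 50.3 and 74.4, in the region chr4:46613948-46614424. Tbc1d30, a GAP for Rab8 at the primary cilium, had one in the 3 young lists alone, at 140, 50.05 and 79.6, with the region chr10:121306156-121306221 shared by them. The Tbc1d2 scores stood at the percentiles 17.7, 0.314 and 23 of the aged lists, and those of Tbc1d30 at 50.7, 0.0819 and 30.7 of the young lists, so that both genes had 1 list in which the peak was among the weakest called. The count of 1 aged-only gene is 1.39% of the 72 members with a peak, where 4.26% of all genes with a peak were aged-only. The count of 1 young-only gene is likewise 1.39%, where the share of all genes was 0.743%. At equal list length Tbc1d2 had no peak in any list and Tbc1d30 kept its 3 young ones.

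Of the 30 TBC genes, 21 had a peak, with 13, 9 and 11 in the young lists and 17, 17 and 15 in the aged (11 ± 2 against 16.3 ± 1.15, SD, n = 3; p = 0.1, two-sided exact permutation test). The direction turned at equal list length, with 8, 9 and 10 genes in the young lists and 5, 6 and 7 in the aged. The 2 subunits of the Rab3 GAP complex, which acts on Rab3 and Rab18, differed in level. Rab3gap1, the catalytic subunit, scored 2207, 821 and 1228 in the young lists and 2741, 2488 and 1340 in the aged. Its main region, chr1:127930707-127931078, had the same ends in all lists. Rab3gap2 scored 60.4 and 70.8 in young lists 1 and 3 and 104, 63.96 and 77.8 in the aged lists.

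Of the 3 exchange factors, 1, 2 and 0 had a peak in the young lists and 2 in each aged list. Rabgef1, which loads Rab5, scored 113 in young list 1 and 262, 198 and 120 in the aged lists, all in 1 region, and it was present in 1 young and 3 aged lists at equal list length as well. Rab3ip, also called Rabin8, which loads Rab8, scored 107 in young list 2 and 113, 91.6 and 61.5 in the aged lists. At equal length it had a peak in 1 young list and in no aged list.

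Effectors held the most crowded gene. Rabep1, the Rab5 effector Rabaptin-5, had 8, 6 and 8 peaks in the young lists and 9, 11 and 11 in the aged, which gave 12 regions, the highest number of any member. Of these regions, 6 were present in all lists. The best, chr11:70887011-70887171, scored 3100, 2484 and 3100 in the young lists and 3100 in each aged list. Another of them, chr11:70904605-70904783, scored 2214, 1722 and 1574 in the young and 3100, 3100 and 3001 in the aged lists. Its 2 aged-only regions were chr11:70874746-70874874 at 253, 131 and 107 and chr11:70920852-70920968 at 138, 66.7 and 82.2. Rabep2 scored 74.6 and 69.7 in aged lists 2 and 3 and had no peak in a young list.

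The Rab11 family interacting proteins, which link Rab11 to motors and other transport proteins, had a peak in all 6 lists for 4 of 5 genes. Rab11fip3 scored 1676, 1162 and 536 in the young lists and 2179, 3100 and 3100 in the aged, at the last 1850 bases of its gene. An aged-only region, chr17:26003651-26004644, scored 101, 73.4 and 60.7. Rab11fip4 scored 734, 558 and 620.3 in the young lists and 1494, 952 and 1031 in the aged, and had 2 regions in all lists, one of which begins 191 bases into the gene.

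Rab11fip2 scored 760.1, 276 and 416 in the young lists and 349, 580.3 and 702 in the aged, with the region over its start present in all lists. Rab11fip5 scored 158, 114 and 117 in the young lists and 285, 176 and 338 in the aged, and its ages did not overlap. Neither did those of Rab5a, Rab6a, Rab6b, Rab8b, Rabgap1, Rabgap1l, Tbc1d5, Rab11fip3 and Rab11fip4, and the aged scores were the higher ones in each. In the rest of the members in all lists the ages overlapped. The share of all genes with such a separation was not computed, and the lists differ in length, so it is not a trait of these genes. Rab11fip1 had no peak. For the 9 effectors as a whole, 5, 5 and 6 had a peak in the young lists and 5, 7 and 6 in the aged (p = 0.7, two-sided exact permutation test, n = 3 lists each), and at equal list length 5 had one in each of the 6 lists.

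**Figure D3:**
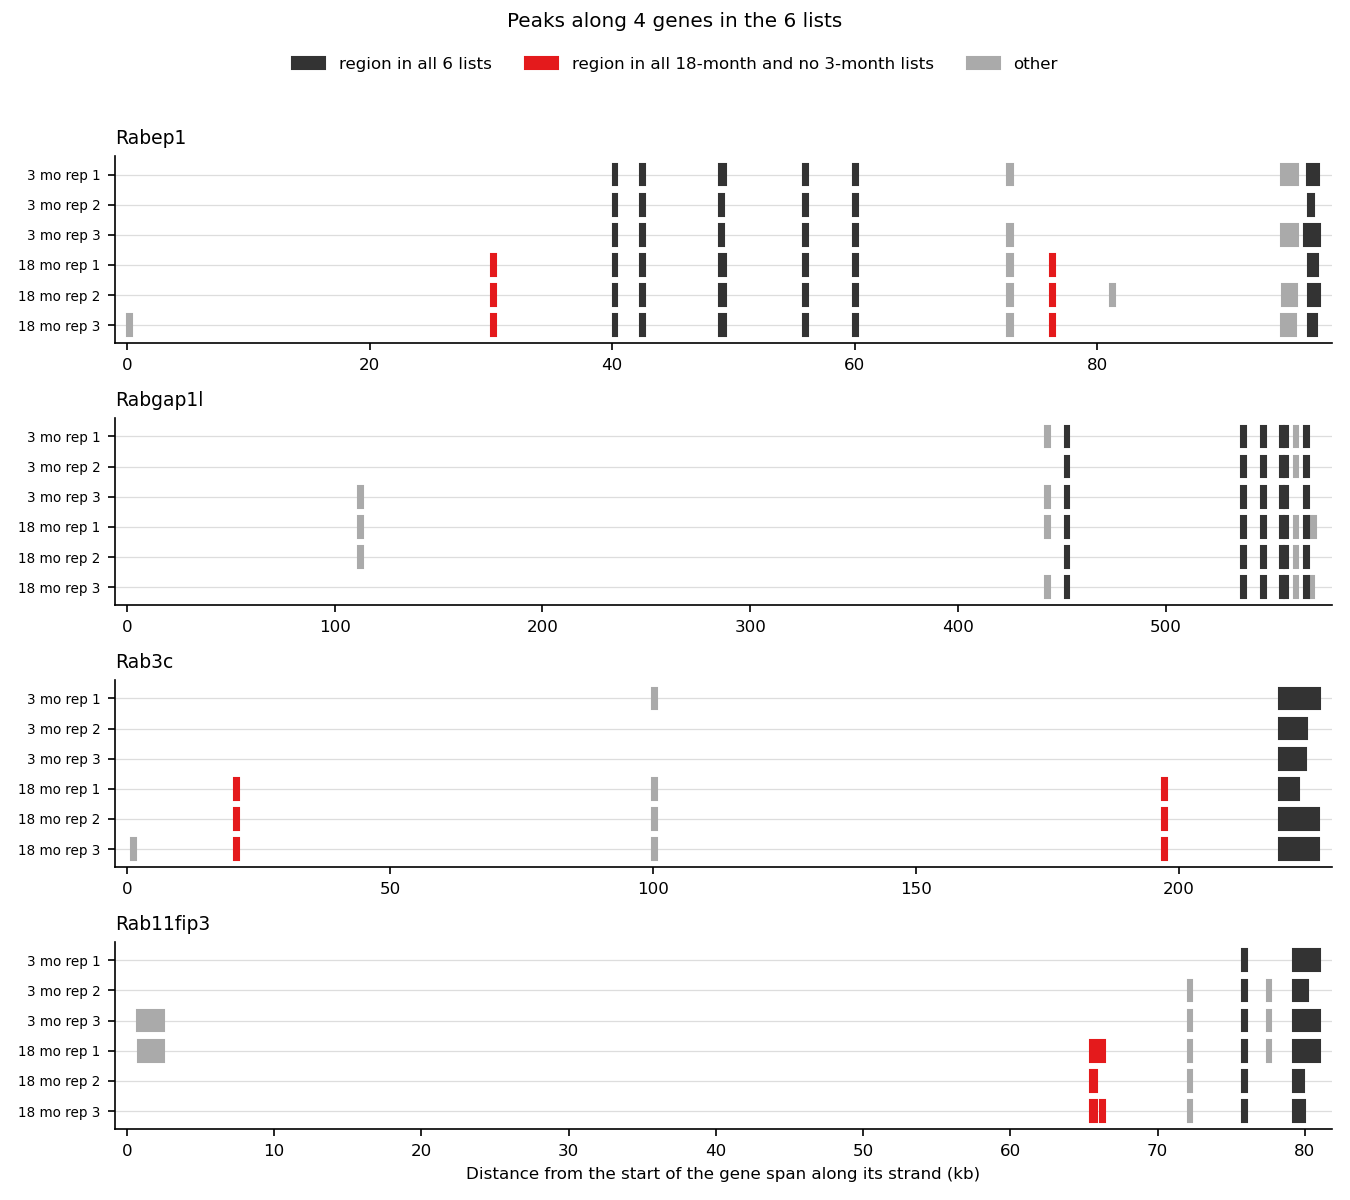
Peaks along Rabep1, Rabgap1l, Rab3c and Rab11fip3, 1 line per list, against the distance in kb from the start of the gene span along its strand; narrow peaks are widened to stay visible. Black marks belong to regions in all 6 lists, red marks to regions in the 3 aged lists and no young list, and grey marks to other regions. Regions join overlapping peaks, so shared ones coincide across lines by definition, and the peaks of the shared Rab3c region differ in their far ends.

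More members had a peak in the aged lists, and the lists themselves were longer. A peak was present in 40, 33 and 40 members of the young lists and in 49, 52 and 46 of the aged (37.7 ± 4.04 against 49 ± 3, SD, n = 3, a ratio of 1.30). The ages did not overlap (p = 0.1, two-sided exact permutation test; with 3 lists against 3 no smaller p is possible, and none of the tests over lists can reach 0.05). Over all genes they did not overlap either. Genes with a peak numbered 5190, 4814 and 5352 in the young lists and 6675, 6235 and 6344 in the aged. Per 1000 of these genes, the members numbered 7.71, 6.86 and 7.47 in the young and 7.34, 8.34 and 7.25 in the aged lists. Those values overlapped (p = 0.6, two-sided exact permutation test, n = 3). Peaks in members numbered 75, 57 and 82 in the young lists and 115, 120 and 113 in the aged (71.3 ± 12.9 against 116 ± 3.61, SD, n = 3, a ratio of 1.63; p = 0.1, two-sided exact permutation test). Per 1000 peaks of a list, the values were 7.59, 6.67 and 7.89 in the young and 7.57, 8.57 and 7.91 in the aged lists. These overlapped (7.38 ± 0.637 against 8.01 ± 0.507, SD, n = 3; p = 0.3, two-sided exact permutation test). The inhibitory neuron markers, with none in the young lists and 2 to 3 in the aged, moved with the number of members with a peak. Astrocyte markers were also higher in the aged lists, with 5, 3 and 5 against 6, 6 and 5, but overlapped. The part of these cell types in the number of members was not tested.

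Keeping of every list only its 8549 highest-scoring peaks, the number in the shortest list, removed the difference in length. Then 31, 33 and 32 members had a peak in the young lists and 24, 29 and 29 in the aged (32 ± 1 against 27.3 ± 2.89, SD, n = 3; p = 0.1, two-sided exact permutation test). The direction was thus the opposite of that in the deposited lists, again with no overlap. Over all genes the direction at this length was the same, with 4553, 4814 and 4517 genes with a peak in the young lists and 4177, 4200 and 4175 in the aged. Per 1000 genes with a peak, the members numbered 6.81, 6.86 and 7.08 in the young and 5.75, 6.91 and 6.95 in the aged lists, which overlap (p = 0.6, two-sided exact permutation test, n = 3). The number of peaks in members was 63, 57 and 71 in the young and 66, 68 and 72 in the aged lists (p = 0.4, two-sided exact permutation test, n = 3).

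**Figure D4:**
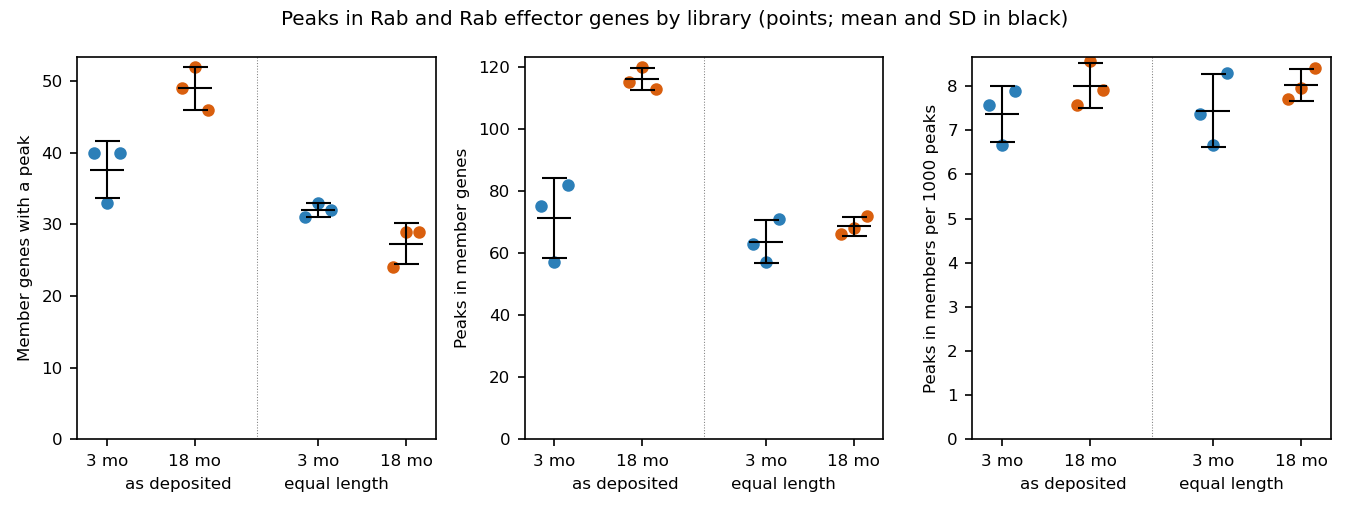
Member genes with a peak, peaks in members, and peaks in members per 1000 peaks of a list (points: 1 list each, blue for 3 months, orange for 18 months; black: mean and SD, n = 3), for the lists as deposited and held to equal length. The number of members with a peak is 33 to 40 against 46 to 52 as deposited and 31 to 33 against 24 to 29 at equal length, while the values per 1000 peaks overlap in both.

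Both the GTPases and the regulators had higher numbers in the deposited aged lists. Rab GTPases with a peak numbered 19, 16 and 21 in the young lists and 23, 24 and 21 in the aged (18.7 ± 2.52 against 22.7 ± 1.53, SD, n = 3; p = 0.2, two-sided exact permutation test). Regulators and effectors numbered 21, 17 and 19 in the young and 26, 28 and 25 in the aged lists (19 ± 2 against 26.3 ± 1.53, SD, n = 3; p = 0.1, two-sided exact permutation test). At equal length the GTPases overlapped, with 16, 16 and 15 against 12, 16 and 15. The regulators then stood at 15, 17 and 17 in the young and 12, 13 and 14 in the aged lists.

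By the number of lists, 35 members (48.6% of those with a peak) had a peak in more aged than young lists, where 43.2% of all genes with a peak did. In the opposite direction the count was 14 (19.4%), against 16.8% of all genes, and 23 were even. Of the 15 members found in 1 list only, 8 were in an aged and 7 in a young list. Over all genes these numbers were 1274 and 764. At equal list length 49 members had a peak, 8 of them (16.3%) in more aged and 17 (34.7%) in more young lists, where 22.2% and 35.2% of all genes with a peak at that length were. Of the 19 members in all lists, 18 stayed in all lists at equal length. The exception was Tbc1d15, which then had a peak in the 3 young lists and in no aged list.

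**Figure D5:**
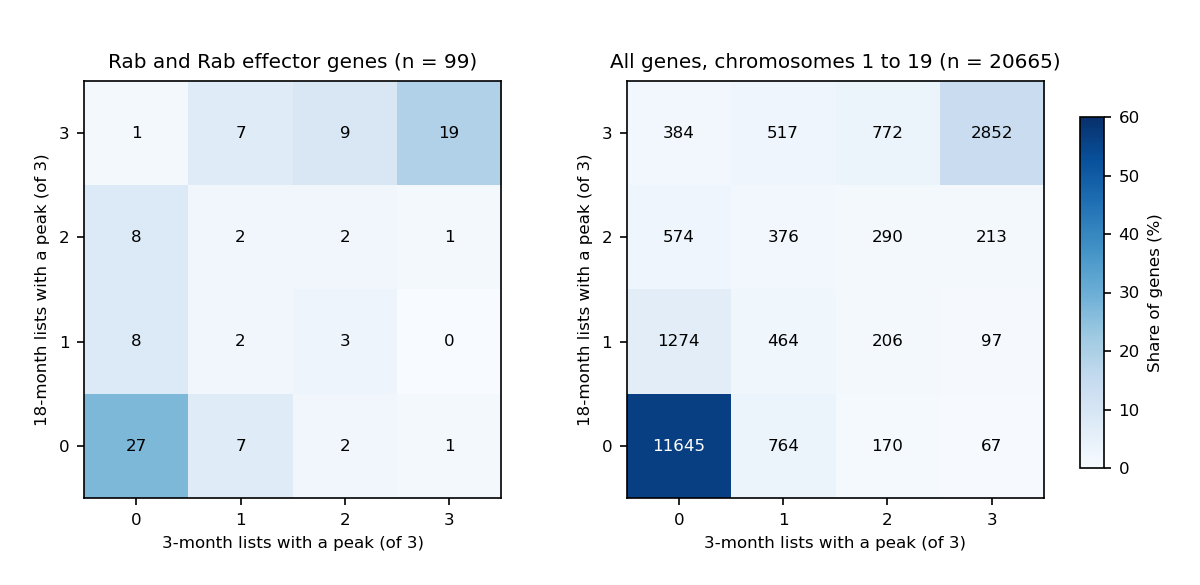
Number of genes by how many of the 3 young lists (horizontal) and of the 3 aged lists (vertical) hold a peak, for the 99 members and for all 20665 genes, shaded by share of genes in %. The members' largest fields are 27 genes with no peak and 19 in all lists, and the fields for 3 lists of 1 age and none of the other hold 1 gene each.

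Peaks that touch or overlap on a strand were joined into regions, of which the members held 190. Of these, 32 (16.8%) had a peak in all 6 lists, beside 17.4% of the regions in all genes. Regions restricted to the 3 aged lists numbered 10 (5.26%), beside 5.17% of all, and 1 region (0.526%) was restricted to the young lists, beside 0.6%. The shares of members lie close to those of all genes in each case. Of the 10 aged-only regions, 9 lie in genes that had a peak in all lists at another place, the exception being that of Tbc1d2. Over all genes, such a gene held 54.3% of the regions restricted to the aged lists. The members' 10 regions lie in 8 genes, since Rabep1 and Rab3c hold 2 each, and their count is a description. The ends were the same to the base in every list that held the region for 23 of the 32 shared regions and for 8 of the 10 aged-only ones.

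Most aged-only regions had low scores and did not last at equal list length. With each list held to 8549 peaks, the regions in Tbc1d2 and Rab11fip3 lost all their peaks. Those in Rab10 and Rab2a, the first in Rabep1 and the first in Rab3c kept 2 aged lists, and the second ones in Rabep1 and Rab3c kept 1. The regions in Rabgap1 and Rab6b kept all 3 aged lists and still had no young one. The Rab6b region at the start of the gene had the highest aged scores of the 10, with 436 as its lowest value, where the other 9 regions reached at most 253. With only the peaks at or above the median score of each list, the Rab6b region was still restricted to the aged lists.

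A RefSeq start site was used for 78 members and for 16457 genes in all. A peak in at least 1 list overlapped the first 50 bases of the transcript in 19 members (24.4%), against 10.3% of all genes. A region present in all lists did so in 4 members (5.13%), namely Rab8b, Tbc1d5, Rab5a and Rab11fip2, beside 2.26% of all genes. An aged-only region did so in 1, Rab6b (1.28%), beside 0.881%. These shares include genes with no peak, and members more often had a peak anywhere (72.7% against 43.6% of all genes). The part of that in the start-site shares was not tested. Peaks with their midpoint in the first 1000 bases of a gene made up 10.7%, 8.77% and 7.32% of the members' peaks in the young lists and 10.4%, 12.5% and 11.5% in the aged (8.92 ± 1.68 against 11.5 ± 1.03, SD, n = 3; p = 0.2, two-sided exact permutation test). Over all genes the values were 8.67 ± 0.314 and 9.57 ± 0.596. The last 1000 bases held 6.67%, 7.02% and 13.4% in the young and 8.70%, 7.5% and 5.31% in the aged lists (p = 0.7, two-sided exact permutation test, n = 3). The median width of the members' peaks was 186, 141 and 198 bases in the young lists and 198, 201 and 198 in the aged (p = 0.3, two-sided exact permutation test, n = 3).

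The rest of the Rab machinery, 82 genes under other names such as DENN domain exchange factors, GDI and further effectors, also had more genes with a peak in the deposited aged lists. A peak was present in 63 of them, in all 6 lists for 26, in all 3 aged and no young list for 3 and the opposite for none. Over all genes, 43.6% had a peak in at least 1 list. Of those, 31.6% had one in all 6 lists, 4.26% were aged-only and 0.743% young-only. The numbers per list were 41, 39 and 37 in the young and 54, 49 and 50 in the aged lists (39 ± 2 against 51 ± 2.65, SD, n = 3; p = 0.1, two-sided exact permutation test). The DENN domain and other exchange factors had a peak for 10, 9 and 6 of 27 genes in the young and 16, 14 and 14 in the aged lists, and the further effectors for 26, 25 and 23 of 42 and for 30, 28 and 28. At equal list length the whole set stood at 36, 39 and 31 in the young and 38, 36 and 36 in the aged lists, which overlap (p = 0.9, two-sided exact permutation test, n = 3).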

How the data were processed

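m5C immunoprecipitation sequencing was done on 12 hippocampal libraries, and the 6 deposited peak lists, 1 per immunoprecipitated library, were used. Reads were processed with cutadapt 1.9.3 and HISAT2 2.0.4 on mm10, per the submitters' processing notes. The peak caller's settings and the treatment of reads that fit several genes were not given in the sources used here. Each deposited score is a value the authors gave to a peak, and it served to rank or filter peaks within 1 list.

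Peaks (coordinates from 1) were given to protein-coding gene spans of GRCm38.p6 that they overlapped by at least 1 base on the gene's strand. The span table has no strand. For 78 members the strand came from the RefSeq promoter table and for 14 from the strand of most peaks, which was the same for 99.6% of 7268 genes that have both. The other 7 members had no peak on either strand. Exons were not used here, so peaks were not placed in coding or untranslated parts. Aged-only genes or regions had a peak in all 3 aged lists and in 0 young ones. A percentile is the share of a list's peaks scoring at or below the value. The test over lists was the exact permutation test, two-sided (smallest p 0.1). Depth is unknown.

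Genes named with values were those called in 1 age, those with a region restricted to 1 age, the 10 with the most regions in all lists, and a set list of synaptic, endosomal and Golgi Rabs and their regulators; others are named from the start-site and role counts after their values were seen. The members and all lists were chosen with earlier results of these data known, and the roles of regulators and effectors were assigned after the files were seen. The scripts were tested on simulated data. Python 3.11.15, pandas 2.3.3 and numpy 2.4.6 were used.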

Additional observations from a re-analysis of the deposited data

How the results depend on the processing

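Equal list length, with 8549 peaks a list, turned the aged minus young difference in members with a peak to -4.67, in members per 1000 genes with a peak to -0.384, in Rab GTPases to -1.33 and in regulators and effectors to -3.33. It left 0 aged-only members, 2 young-only members (Tbc1d15 and Tbc1d30) and 2 aged-only regions. Fewer peaks were counted in every list but young list 2, and the cause of the changed calls was not tested. Keeping peaks at or above the median score of their list gave 2 aged-only members (Rab27b and Rab6b), 0 young-only members, 5 aged-only regions and 0 young-only regions, from fewer peaks. Leaving out 1 replicate at a time, where a call needs 2 of 2 lists on the reduced side, gave 2 to 5 aged-only members, 1 to 2 young-only members, 10 to 22 aged-only regions, with the 22 reached without aged replicate 1, and 1 to 3 young-only regions. The difference in members per 1000 genes with a peak then ran from -0.0494 to 0.495, and it turned negative without aged replicate 2; the cause was not tested. The difference in the share of member peaks in the first 1000 bases was 4.13 percentage points at equal length and -0.0917 above the median score, and that in the last 1000 bases, -1.86 as reported, turned to 0.306 above the median score and to 0.326 without young replicate 3. Differences in peaks in members, in peaks in members per 1000 peaks and in the other Rab machinery kept their direction in all these settings. They also did so with either strand, with most of the peak required inside the span, and with unambiguous peaks only. Counts by role were recomputed at equal list length only, where that of the TBC genes, among others, turned. No list comparison could pass 0.05 under any setting. Samples with the same number did not deviate together (correlations -0.0122, 0.00137 and 0.0164). Correlations of samples with different numbers were as small, from -0.0191 to 0.0177. These values cannot tell whether samples with the same number were handled together. With a replicate block, the exact sign permutation test gave p = 0.25 for the difference of 11.3 in members with a peak, the smallest it allows. The block bears on the p-value only, so the difference and the calls could not change. Depth is unknown, so it cannot be said which missing peaks a deeper library would have.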
